A study of Mus musculus with 14 samples.

Results

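The *Magea* genes are the mouse members of the MAGE-A family of cancer-testis genes, and were followed here in cumulus cell-derived clones and IVF-derived embryos at the blastocyst stage. The family was taken as every gene probe of the array that the files name *Magea* followed by a number. This rule found 8 probes, 1 each for *Magea1*, *Magea3*, *Magea4*, *Magea5*, *Magea6*, *Magea7*, *Magea8* and *Magea9*, among 41174 gene probes with 27962 gene names. *Magea7* and *Magea9* are listed as pseudogenes in the current RefSeq gene table, and the other 6 as protein-coding. The family was chosen by its levels in these same samples, which were low in the clones and high in the IVF-derived embryos, with *Magea4* as the exception. The comparisons of clones with IVF-derived embryos are therefore given as a description without a test.

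MAGE proteins share a conserved domain through which they bind RING-type ubiquitin ligases and direct them to substrates. Type I MAGE genes, to which the *Magea* genes belong, lie on the X chromosome, are normally active in the germ cells of the testis and are silent in most adult tissues. In tumor cells, loss of DNA methylation at their promoters is the best known route to their activation.

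RNA was measured on 14 one-color arrays. The clones were made by placing the nuclei of cumulus cells, the somatic cells around the ovulated oocyte, into enucleated oocytes, either by cell fusion (fusion clones, n = 4) or by nuclear injection (injection clones, n = 4), and are female. The controls were male (n = 3) and female (n = 3) IVF-derived embryos, described in the series as matched for sex and genotype. All embryos were cultured in KSOM medium to E4.0. The methods name BDF1 mice, the F1 of C57BL/6N and DBA/2, as oocyte donors. As nuclear donors, also of cumulus cells, they name heterozygous *Xist* knockout mice of BDF1 background. They do not state this separately for the blastocysts, whose labels give no strain or allele. The extraction is described for single embryos, and the labels do not say whether an array holds 1 embryo. The p-values below thus measure the spread between arrays.

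Between 57.45% and 65.22% of the spots of an array were well above background. Each group lay on a slide of its own, and the clones and the IVF-derived embryos were scanned on different scanners and read with different software versions, so that slide and group cannot be told apart in any comparison. All 7 trophectoderm markers (among them *Cdx2* and *Krt8*) and all 5 epiblast markers with a probe (among them *Pou5f1* and *Nanog*) were well above background on every array. Of 6 primitive endoderm markers, 6 were detected on every IVF array and 3 to 5 on the clone arrays. Of the 8 cumulus cell markers, 1 to 3 were detected on the clone arrays and 3 to 6 on the IVF arrays. The 6 testis germ cell markers, which stand for the tissue where *Magea* genes are best known, were detected to a like extent in clones (4 or 5 of 6) and IVF-derived embryos (3 to 5 of 6). Among them *Acrv1*, a gene of the sperm acrosome, was not well above background on any of the 14 arrays.

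The 8 probes fall into 3 places on the X chromosome. In the gene table, *Magea6*, *Magea3*, *Magea8*, *Magea2*, *Magea5* and *Magea1* follow each other in this order, with 3 other genes between them. The array files place the probes of this cluster at X:149725197-149725256 (*Magea6*), X:149749781-149749840 (*Magea3*), X:149787292-149787351 (*Magea8*), X:149855012-149855071 (*Magea5*) and X:149889985-149890044 (*Magea1*), all on the minus strand and within 165 kb. *Magea4* (X:67608720-67608779) and *Magea9* (X:68256197-68256256) lie in a second place together with *Magea10*, and *Magea7* (X:71734209-71734268) alone in the third, all on the plus strand. The files that hold these positions name no genome build. No probe sequence was read here, but each probe, of 60 bases, comes with the accessions that its maker matched to it, at most 4 per probe. The *Magea1* probe lists RefSeq transcripts of *Magea1*, *Magea5*, *Magea8* and *Magea2*, the *Magea5* probe those of *Magea5*, *Magea1*, *Magea6* and *Magea2*, and the *Magea8* probe those of *Magea8*, *Magea5* and *Magea2*. The probes of *Magea3*, *Magea4* and *Magea6* list a RefSeq transcript of their own gene only. By these listings the probes of *Magea1*, *Magea5*, *Magea6* and *Magea8* share targets and are not independent measurements, while no other probe lists *Magea3*. The listings of all 8 probes hold 4 entries, the most for any probe. Further targets may thus be missing from them, also for the *Magea3* probe. The signals of *Magea1*, *Magea5* and *Magea8* cannot be assigned to single genes.

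The RefSeq promoter table (GRCm38.p6) holds 8 *Magea* genes, those of the cluster, *Magea4* and *Magea10*. The 250 bases before the annotated start were examined, since the methylation of CG dinucleotides is a known control of the family. The following windows are shown because they begin at the outermost start of their gene and stand near opposite ends of the range, with each CG in capitals. They are *Magea8* at chrX:154995851-154996100 and *Magea1* at chrX:155089791-155090040, both read on the minus strand.
Magea8: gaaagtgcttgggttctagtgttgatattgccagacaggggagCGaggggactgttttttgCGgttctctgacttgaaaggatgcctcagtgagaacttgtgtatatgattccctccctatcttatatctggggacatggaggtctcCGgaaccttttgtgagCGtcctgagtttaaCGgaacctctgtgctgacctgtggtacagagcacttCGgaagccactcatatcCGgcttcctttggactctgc
Magea1: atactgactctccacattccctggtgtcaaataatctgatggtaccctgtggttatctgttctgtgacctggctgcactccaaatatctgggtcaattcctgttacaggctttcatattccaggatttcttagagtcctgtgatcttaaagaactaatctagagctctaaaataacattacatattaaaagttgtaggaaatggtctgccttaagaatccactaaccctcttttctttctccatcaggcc
The *Magea8* window held 7 CG dinucleotides and the *Magea1* window 0. The *Magea2* window held 8, *Magea10* 2, *Magea6* 1, and *Magea3*, *Magea4* and *Magea5* 0, beside a median of 6 over all 32851 windows of the table. The letters CCGGAA, the core bound by Ets-type factors, which itself holds a CG, occurred on either strand in 2 of the 8 windows (*Magea2* and *Magea8*), against 12% of all windows. The *Magea8* and *Magea2* windows were 81.5% identical and those of *Magea1* and *Magea3* 84.1%, beside a median of 52.2% over the 28 pairs. For *Magea2*, *Magea3*, *Magea4*, *Magea5* and *Magea6* the window lies inside a longer gene model. Which start is used in blastocysts was not tested for any of the 8 genes. This holds also for *Magea1*, whose window resembles that of *Magea3*, which lies 9462 bases inside its gene model.

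In IVF-derived blastocysts the 5 cluster probes were well above background on all 6 arrays, and in most clones they lay at or near the lowest level that could be measured. All levels are log2 normalized intensities, with a floor of 4.0. A value at the floor has no order below it. The arrays are bulk samples, in which fewer expressing cells and less RNA per cell cannot be told apart.

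*Magea1* read 4.0, 4.0, 5.97 and 4.0 in fusion clones 1 to 4 and 4.0, 4.0, 8.82 and 4.64 in injection clones 1 to 4. It read 11.32, 12.60 and 10.40 in the male and 12.45, 12.14 and 12.67 in the female IVF-derived embryos. Every clone lay below every IVF-derived embryo, and 5 of the 8 clones were at the floor. The mean was 4.49 ± 0.99 (SD, n = 4) for fusion clones, 5.37 ± 2.32 (SD, n = 4) for injection clones and 12.42 ± 0.27 (SD, n = 3) in female embryos, a difference of -7.93 (SE 0.52) for fusion and -7.05 (SE 1.17) for injection clones. On the linear scale these are 243-fold and 133-fold, and because of the floor they depend on the lowest level allowed.

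*Magea3*, whose human namesake is a widely studied tumor antigen, read 4.0, 4.09, 6.09 and 4.0 in the fusion clones and 4.0, 5.04, 9.02 and 5.80 in the injection clones. The male embryos read 11.44, 12.74 and 10.34 and the female embryos 12.38, 12.14 and 12.65. The clones again lay below all IVF-derived embryos, with the injection clones spread from the floor to 9.02. The difference from female embryos was -7.85 (SE 0.54) for fusion clones and -6.43 (SE 1.09) for injection clones.

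*Magea8* read 4.0, 4.0, 6.87 and 4.0 in the fusion clones, 4.0, 4.10, 9.11 and 5.07 in the injection clones, 11.37, 12.45 and 10.26 in male and 12.46, 12.01 and 12.37 in female embryos. For *Magea6* the values were 4.0, 4.91, 5.29 and 4.0 in the fusion clones, 4.0, 4.0, 8.15 and 4.31 in the injection clones, 10.86, 12.31 and 10.23 in male and 11.97, 11.20 and 12.85 in female embryos. In both, clone 3 of either method was the highest of its group, and no clone reached an IVF-derived embryo. *Magea8* differed from female embryos by -7.56 (SE 0.73) in fusion and -6.71 (SE 1.21) in injection clones, and *Magea6* by -7.45 (SE 0.58) and -6.89 (SE 1.12).

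*Magea5* was the cluster probe with the smallest difference. Its values were 4.73, 4.52, 5.65 and 4.92 in the fusion clones, 4.99, 5.03, 7.07 and 5.30 in the injection clones, 10, 10.86 and 8.80 in male and 10.51, 10.14 and 10.12 in female embryos. None of its clone values was at the floor, and the clones lay below all IVF-derived embryos by a wide gap. The difference from female embryos was -5.30 (SE 0.28), or 39.5-fold, in fusion clones and -4.66 (SE 0.51), or 25.3-fold, in injection clones.

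**Figure D1:**
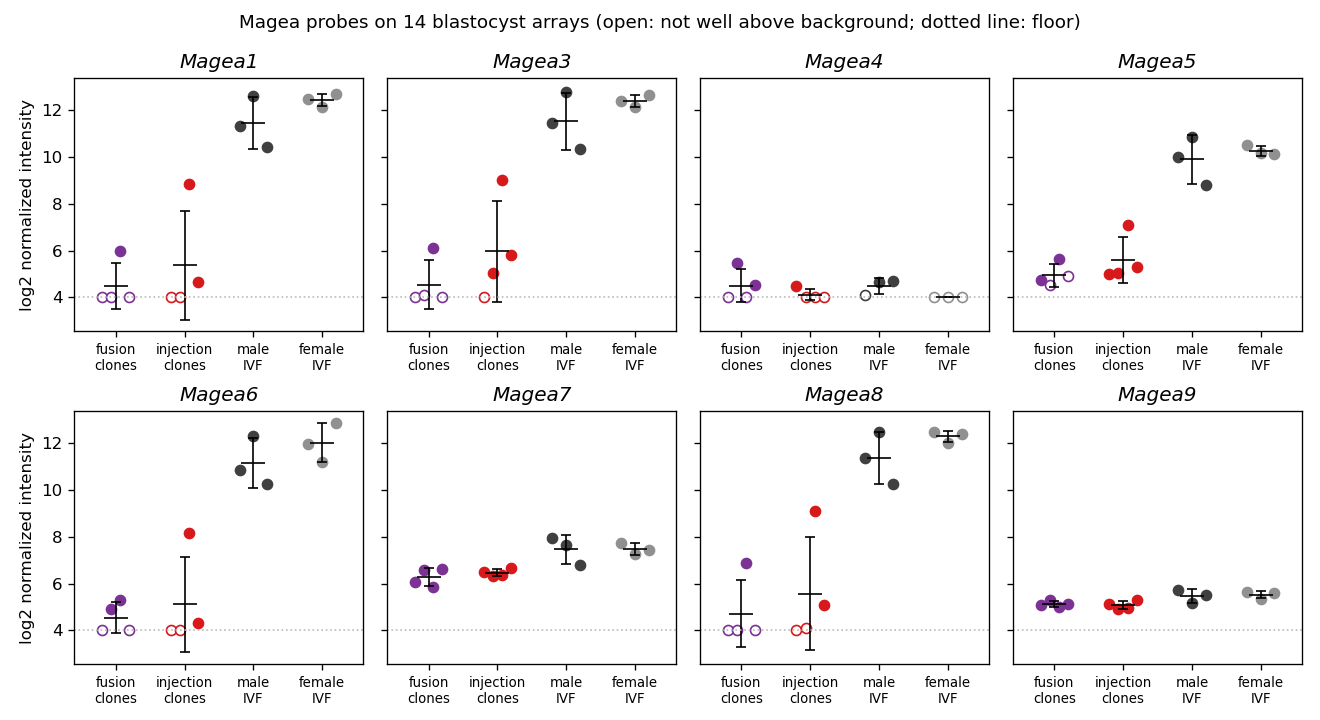
Log2 normalized intensity of the 8 *Magea* probes on each of the 14 arrays, by group. Each point is an array (open where the probe was not well above background), the horizontal line and bar are the group mean and SD, and the dotted line is the floor of 4.0. The clones lie below all IVF-derived embryos for *Magea1*, *Magea3*, *Magea5*, *Magea6*, *Magea7* and *Magea8*, while the groups overlap for *Magea4*.

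The pseudogene probes showed small differences. *Magea7* read 6.06, 6.59, 5.85 and 6.61 in the fusion clones, 6.51, 6.33, 6.37 and 6.66 in the injection clones, 7.95, 7.65 and 6.78 in male and 7.75, 7.24 and 7.41 in female embryos. All clones lay below all IVF-derived embryos, but close to male embryo 3. The difference from female embryos was -1.19 (SE 0.24) in fusion and -0.998 (SE 0.17) in injection clones, and -0.66 and -0.60 when the background was corrected with normexp instead. *Magea9* read 5.07, 5.30, 5.01 and 5.14 in the fusion clones, 5.12, 4.90, 4.96 and 5.28 in the injection clones, 5.74, 5.15 and 5.50 in male and 5.64, 5.35 and 5.60 in female embryos. It overlapped between clones and male embryos, and its difference from female embryos, -0.40 (SE 0.11) in fusion and -0.46 (SE 0.13) in injection clones, was 0.00 and -0.12 when the arrays were scaled to their 75th percentile.

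*Magea4*, the member named as the exception, was barely detected in any group. It read 4.0, 5.47, 4.0 and 4.54 in the fusion clones, 4.50, 4.0, 4.0 and 4.0 in the injection clones, 4.09, 4.67 and 4.68 in male and 4.0, 4.0 and 4.0 in female embryos. It was well above background on 2 fusion, 1 injection and 2 male arrays and on none of the female arrays, and clones and IVF-derived embryos overlapped. No fold is given, because the female values and most clone values were at the floor. In IVF-derived embryos it did not exceed 4.68, a level close to the floor. The levels of *Magea2* and *Magea10* were not measured on their own here.

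Of the 8 probes, 7 were lower without overlap in fusion clones than in female embryos, where 15.3% of all 32410 probes were, and 7 were so in injection clones, where 12.5% of 32792 were. With a difference of at least 2-fold as well, the counts were 6 of 8 in fusion clones (7.35% of all probes) and 5 of 8 in injection clones (6.18%). *Magea7* was the probe at this limit, with -1.19 just inside it in fusion clones and a value just short of 2-fold in injection clones. Against male embryos, 6 of 8 were lower by at least 2-fold without overlap over the 8 clones together (5.72% of 33780 probes). These counts follow from how the family was chosen. The median difference over the 8 probes was -6.38 in fusion and -5.54 in injection clones relative to female embryos, beside -0.12 and -0.08 over all probes and -0.21 and -0.19 over X-linked probes.

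**Figure D2:**
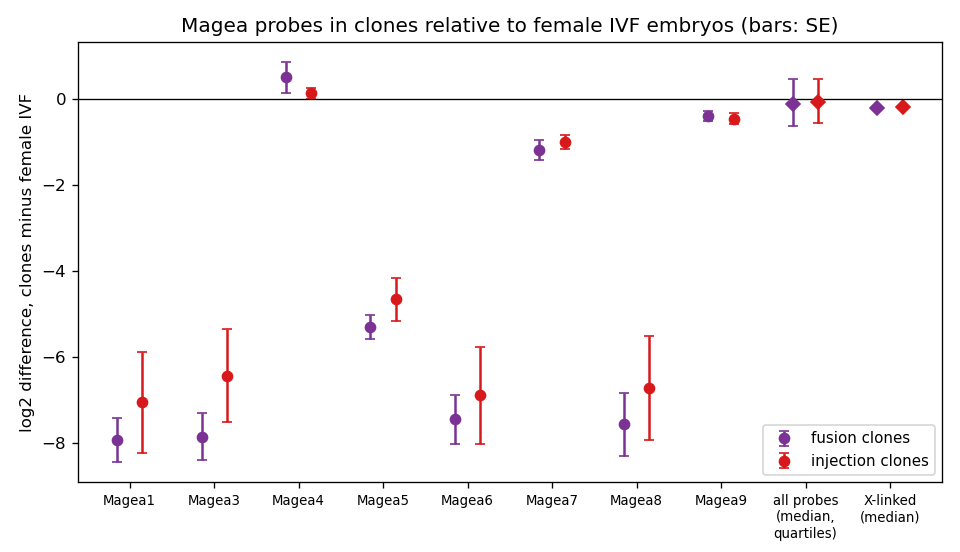
Log2 difference of each *Magea* probe between clones and female IVF-derived embryos, for fusion and injection clones, with the SE as bars. The right-hand diamonds give the median and quartiles over all probes and the median over X-linked probes. The 5 cluster probes lie between -7.93 and -4.66, far below both medians, whereas *Magea4*, not well above background in female embryos, lies at 0.50 and 0.13, sizes set by the floor.

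*Xist*, the RNA that silences 1 X chromosome in female cells, was given beside these X-linked levels. It read 14.45, 14.43, 14.22 and 11.80 in the fusion clones and 14.99, 15.47, 14.47 and 13.91 in the injection clones, against 13.50, 12.25 and 12.56 in female embryos. The clones other than fusion clone 4 lay above all female embryos. Its part in the *Magea* levels was not tested. Male embryos, in which *Xist* read 4.0, 6.60 and 4.46, had means over the 5 cluster probes of 11, 12.19 and 10, against 11.95, 11.53 and 12.13 in female embryos.

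The clones were not alike in the low level of the cluster. The mean of the 5 cluster probes was 4.15, 4.30, 5.98 and 4.18 in fusion clones 1 to 4 and 4.20, 4.43, 8.44 and 5.02 in injection clones 1 to 4. Injection clone 3 and fusion clone 3 were the highest of their group for all 5 probes, and all 5 were well above background on both. Injection clone 4 also had all 5 probes above background, but at a low level, while 0 to 2 were above background on the other clone arrays. Even injection clone 3 stayed 2.22-fold to 4.21-fold below the lowest IVF-derived embryo, and fusion clone 3 8.85-fold to 30.6-fold. On the array of fusion clone 3, 62.18% of the spots were well above background, as were 63.96% and 65.22% on those of injection clones 3 and 4 and 57.45% to 60.43% on the other clone arrays. The part of this in the cluster levels was not tested. The 2 arrays share the number 3, and r of their deviations from the group means was 0.17. The other same-numbered clone arrays gave -0.07 to -0.01, and fusion clone 4 with injection clone 2 gave 0.16. Whether the numbers pair the clones cannot be told from this. Without the array of injection clone 3, the difference from female embryos in injection clones was -8.21 for *Magea1*, -7.44 for *Magea3*, -5.15 for *Magea5*, -7.90 for *Magea6* and -7.89 for *Magea8*.

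**Figure D3:**
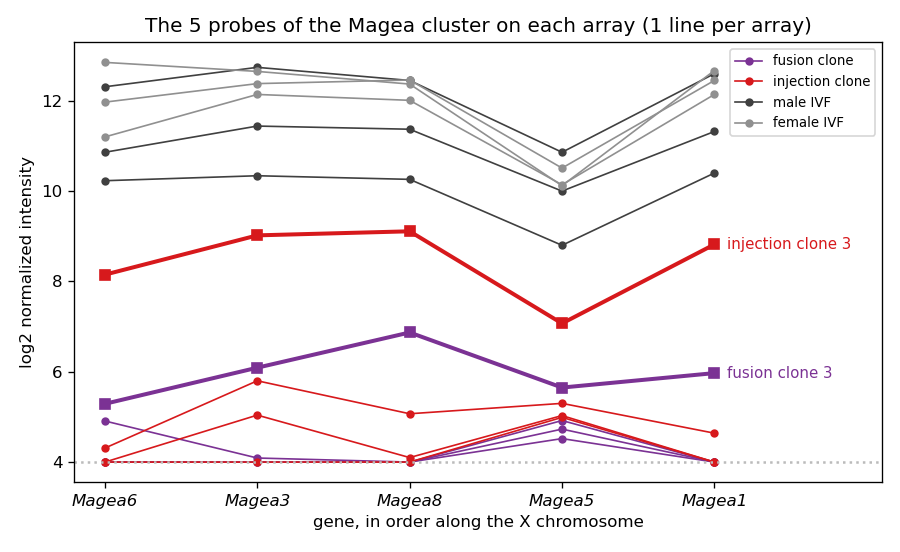
Log2 normalized intensity of the 5 cluster probes on each array, 1 line per array, with the genes in their order along the X chromosome. Thick lines with squares are fusion clone 3 and injection clone 3, the highest of their group at all 5 probes. Injection clone 3 stands apart from the other clones at all 5. Fusion clone 3 lies close to another clone at some, with 5.29 at *Magea6* against 4.91 in fusion clone 2 and 6.09 at *Magea3* against 5.80 in injection clone 4. The levels of different probes are not comparable, so the lines are read against each other and not along their course.

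The members of the cluster moved together also where the groups play no role. Over the 14 arrays, Pearson's r between cluster probes was 0.98 to 1.0 for the 10 pairs, and after each group's mean was taken off it was still 0.85 to 0.99. Listed targets shared by probes other than that of *Magea3* enter these values, as do the clone arrays numbered 3. Unlisted targets may enter them as well. Between a cluster probe and *Magea4*, *Magea7* or *Magea9*, r of the deviations was -0.40 to 0.19. Among IVF-derived embryos, male embryo 3 was the lowest and male embryo 2 the highest of their group at all 5 cluster probes. The SD of the cluster probes between male embryos was 1.03 to 1.21, against a median of 0.54 over all probes, and between female embryos 0.22 to 0.82, against 0.51.

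The comparison of the transfer methods and that of the sexes did not enter the choice of the family and were tested. Between fusion and injection clones, limma called 0 of the 8 probes, and 0.0% of all 32303 probes, at an adjusted p below 0.05 (6.17% had an unadjusted p below 0.05, and 0 of the 8 *Magea* probes). The fusion clones had the lower mean for all 5 cluster probes, by -0.57 (*Magea6*) to -1.42 (*Magea3*), with adjusted p from 0.814 to 0.895. The 95% intervals were wide, from -3.62 to 1.88 for *Magea1* and from -4.03 to 1.19 for *Magea3*, and all 8 held 0. Without injection clone 3 the difference turned to 0.28 for *Magea1*, 0.45 for *Magea6* and 0.33 for *Magea8*. For *Magea7* the difference was -0.19 (95% interval -0.67 to 0.28, limma adjusted p = 0.814), for *Magea9* 0.06 (-0.22 to 0.35, adjusted p = 0.906) and for *Magea4* 0.38 (-0.44 to 1.19, adjusted p = 0.814).

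Between male and female IVF-derived embryos, limma called 0 of the 8 probes, where 0.0594% of all 31982 probes were called (7.77% had an unadjusted p below 0.05, and 0 of the 8 *Magea* probes). The cluster probes were lower in male embryos on average, by -0.37 (*Magea5*) to -0.98 (*Magea1*), with adjusted p from 0.695 to 0.802, and their values overlapped between the sexes. The 95% interval for *Magea1* was -2.44 to 0.48 and that for *Magea8* -2.36 to 0.52. The median over X-linked probes was -0.28 in the same comparison and that over all probes -0.03. *Magea4* was the only *Magea* probe without overlap, with all males above all females, as were 5.98% of all probes. It did not pass the test (limma adjusted p = 0.666), and no fold is given, because the female values and that of male embryo 1 were not well above background. A floor of 1 or the values as deposited gave a call for *Magea4*, and a floor of 32 a difference of 0.00.

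The genes around the family were examined to see how far the low level reached. Of the 10 nearest genes on each side of the cluster, those with a tested probe all lay beyond *Magea1* and were *Cldn34b2*, a claudin gene, *Sat1*, which acetylates polyamines, *Acot9*, a mitochondrial thioesterase, and *Prdx4*, a peroxidase of the secretory pathway. Of their 7 probes, limma called 0 in fusion clones and 0 in injection clones relative to female embryos (with at least a 2-fold difference, 4.01% and 1.83% of all probes were called lower and 4.02% and 1.4% higher). *Sat1*, at a mean of 13.06 ± 0.60 (SD, n = 3) in female embryos and 13.15 ± 0.36 (SD, n = 4) in fusion clones, differed by 0.09 (SE 0.34, adjusted p = 0.874) by its brighter probe. The brighter probe of *Prdx4* differed by 0.04 (adjusted p = 0.932) and that of *Acot9* by 0.56 (adjusted p = 0.138) in fusion clones. In injection clones the same probes differed by 0.25 (*Sat1*, limma adjusted p = 0.718), 0.36 (*Prdx4*, adjusted p = 0.271) and 0.7 (*Acot9*, adjusted p = 0.0889). *Cldn34b2*, the gene next to *Magea1*, had a mean of 4.0 in fusion clones, 5.67 in injection clones and 5.71 in male embryos. In female embryos it was 7.87 ± 3.08 (SD, n = 3), and the gene did not pass the test in either comparison. It was not well above background on any fusion array, so that the fold between the means is a lower bound, 12.8 (limma adjusted p = 0.119). This bound takes the female mean as it stands, without its wide spread. In injection clones, where 3 of 4 arrays detected it, the difference was -2.20 (limma adjusted p = 0.456). Around *Magea4*, *Magea10* and *Magea9*, 0 of 14 tested probes were called in fusion and 0 of 15 in injection clones, and around *Magea7* 0 of 2 in each.

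**Figure D4:**
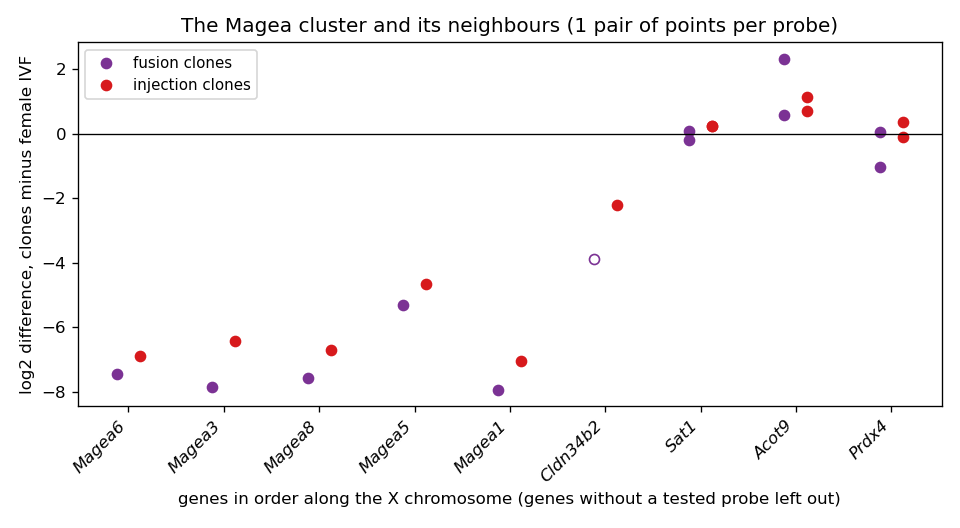
Log2 difference between clones and female IVF-derived embryos for the cluster probes and the probes of neighboring genes, in the order of the genes along the X chromosome. Each pair of points is a probe, in fusion and in injection clones, open where no array of the clone group was well above background. The *Magea* probes lie between -7.93 and -4.66, *Cldn34b2* at -2.20 in injection clones and, as an open point set by the floor, lower in fusion clones, and the probes of *Sat1*, *Acot9* and *Prdx4* between -1.04 and 2.31.

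Other genes of the MAGE superfamily and their partners were read from lists drawn up by family and known binding. Of 13 further MAGE genes with 17 probes, 12 probes of 10 genes could be tested in fusion and 15 probes of 12 genes in injection clones. Of these, 3 were called lower in fusion clones and 3 in injection clones relative to female embryos, by limma with an adjusted p below 0.05 and at least 2-fold, and 0 were called higher. Over all probes 4.01% were called lower in fusion and 1.83% in injection clones, and over X-linked probes 6.04% and 3.51%. The genes called were *Maged1*, *Maged2* and *Magel2* in both comparisons, which share the female arrays. *Maged2*, an X-linked type II MAGE gene active in many tissues, had a mean of 6.28 in fusion clones, 4.68 in injection clones, 9.34 in male and 9.33 in female embryos. It fell in both, with a difference of -3.05 (SE 0.72, adjusted p = 0.0498) in fusion and -4.65 (SE 0.44, adjusted p = 0.0128) in injection clones. Only 2 of the injection arrays were well above background for *Maged2*, so that the floor enters its difference and SE there. *Maged1*, also X-linked and a partner of the p75 neurotrophin receptor, fell from a mean of 14.62 in female embryos, with differences of -2.07 (adjusted p = 0.0178) and -2.64 (adjusted p = 0.0324). *Magel2*, an imprinted gene of the Prader-Willi region on chromosome 7, was called lower as well, with differences of -1.48 and -1.68 (limma adjusted p = 0.0278 in both). Its mean was 4.2 in fusion clones and 4.0 ± 0.0 (SD) in injection clones, against 5.68 in female embryos. Only 1 array of either clone group was well above background. The floor thus enters the size of these differences, and the p-values do not allow for it. *Mageb16*, a type I gene like the *Magea* genes, had a mean of 14.23 in female embryos and differed by -0.56 (adjusted p = 0.15) and -1.65 (adjusted p = 0.246) by its brighter probe. The median over the tested MAGE probes was -1.09 in fusion and -1.05 in injection clones. The calls in fusion clones rested on few arrays, with 0 called without fusion clone 3, and 1 without fusion clone 4, female embryo 2 or female embryo 3. In injection clones 1 was called without injection clone 2, injection clone 3 or female embryo 2. With other processing the count in fusion clones was 1 (75th percentile scaling, the deposited values or a floor of 32). It was 4 where probes had to be well above background on every array of a group. The count in injection clones was 1 with the deposited values or a floor of 1.

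Of 7 genes for known MAGE partners with 13 probes, limma called both probes of 1 gene lower in fusion clones and 0 probes in injection clones, and 0 higher in either, beside 4.01% and 1.83% of all probes called lower. *Pja1*, an X-linked RING ligase that binds *Maged1* protein, fell in fusion clones, with differences of -2.09 (adjusted p = 0.0399) and -2.94 (adjusted p = 0.0215) for its probes. In injection clones the same probes differed by -3.25 (adjusted p = 0.214) and -2.98 (adjusted p = 0.0983). *Trim28*, the ligase that MAGE-A proteins are best known to bind, differed by -0.97 (adjusted p = 0.066) in fusion and -1.19 (adjusted p = 0.0535) in injection clones, short of the threshold in both. *Nsmce1*, another listed partner, differed in the other direction, by 0.47 (limma adjusted p = 0.229) in fusion and 0.8 (adjusted p = 0.0515) in injection clones. It was short of the threshold as well. With 75th percentile scaling 3 probes were called in fusion clones. Only 1 was called there with a floor of 1 or of 32, with no filter or with all 4 groups in one fit. In injection clones 2 were called with normexp or all 4 groups in one fit. Of the fusion probes 0 were called without fusion clone 1, fusion clone 4 or female embryo 3, and 1 without fusion clone 3, female embryo 1 or female embryo 2.

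Among 15417 other named genes, those whose pattern over the 14 arrays was most like the mean of the 7 *Magea* probes detected in all IVF-derived embryos were *DXBay18* (r = 0.958), *Tmem131* (r = 0.957), *Xlr4b* (r = 0.956), *Nop2* (r = 0.956) and *Xlr5c* (r = 0.953). These arrays share the gap between clones and IVF-derived embryos, which enters every r. Of these, *DXBay18*, *Xlr4b* and *Xlr5c* lie on the X chromosome, and the *Xlr* genes belong to another X-linked multicopy family. *Xlr5c* had a mean of 4.58 in fusion and 5.39 in injection clones against 11.53 in male and 11.11 in female embryos. *Xlr4b* fell from a higher level, with 11.16 and 11.23 in the clones against 15.44 and 15.62. In injection clone 3, *Xlr4b* read 12.80, the highest of the clones, and *Xlr5c* 5.92, within the range of the others. By deviations from the group means the 5 most alike were *Pou4f3* (r = 0.874), *Olfr167* (r = 0.872), *Tnfrsf23* (r = 0.871), *Pcdhb5* (r = 0.868) and *Il7* (r = 0.862), whose values in injection clone 3 were 5.37 to 9.14 while the clones other than the pair numbered 3 were between 4.0 and 4.27.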

How the data were processed

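Total RNA of 14 E4.0 blastocyst samples was measured on Agilent whole mouse genome arrays with 1 color. The authors deposited the Feature Extraction output of each array, with the processed intensity of each spot on a linear scale after background subtraction and without normalization between arrays. The clone arrays were read with version 10.5.1.1 and the IVF arrays with 9.5.3.1 (the submitters' processing notes name 10.5.1). The IVF arrays hold 6790 to 9981 gene spots with a processed intensity below 0 and the clone arrays 0. A second deposited file holds log2 values for these arrays (0 columns without a sample), which served as an alternative. Its scale and centring per probe are not stated in the sources used here.

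The 1639 control spots were left out and outlier spots (101 to 338 per array) were set to missing. Quantile normalization, as the study's methods were read, was applied to the processed intensities of the 14 arrays together, which were then floored at 16 and log2-transformed, and spots of the same probe were averaged. Tested were probes detected (well above background) on 1 or more arrays of the compared groups, using limma 3.58.1 (lmFit and eBayes, R 4.3.3) and Benjamini-Hochberg adjustment over all of them, and called at an adjusted p below 0.05, with at least 2-fold for gene lists. For a group in which no array detected a probe, a fold is given only as a lower bound, against the higher, per array, of the lowest signal well above background and the probe's own. Tables and plots were made with Python 3.11.15 and matplotlib 3.10.9. The fit was tested on simulated data with known changes, drawn as normal noise without the floor. Such data do not cover probes with values at the floor. Of the gene probes, 79.6% had a match in the RefSeq gene table (GRCm38.p6).

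Named were all probes of the family, of each list the called genes (or up to 3 with the smallest p), and the 5 genes most like the family. *Mageb16*, *Trim28* and *Nsmce1* were not called and are named outside this rule. In the neighbor lists, where none was called, genes were named after their values were seen. The family, the lists and the tests were chosen with earlier results of these data known. Probe sequences and *Magea* proteins were not analysed here. Same-numbered male and female arrays had r of deviations of 0.15, 0.17 and 0.17, against -0.12 to -0.04 between differently numbered ones. Between fusion and injection clones r was -0.07 to 0.17 for the same number and -0.18 to 0.16 otherwise. The labels state no pairing, and values of r this small neither establish nor exclude one. Alternatives were 75th percentile scaling, normexp (offset 50), the deposited values, floors of 1 and 32, other filters on dim probes, all groups in one fit, a variance trend, a replicate block and leaving out each array.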

Additional observations from a re-analysis of the deposited data

Results flagged for a closer look

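In 7 of 16 groups of 4 clone arrays (8 probes in 2 clone groups), 1 array stood far from the other 3. No chance rate is set beside this count, because the probes were read on the same arrays and many values were at the floor. In fusion clones the array of fusion clone 3 was far above the others for *Magea1* (5.97), *Magea3* (6.09) and *Magea8* (6.87). In injection clones the array of injection clone 3 was far above the others for *Magea1* (8.82), *Magea5* (7.07) and *Magea6* (8.15). Apart from that of *Magea3*, the cluster probes share listed targets, so their flags are not independent, and in several of the groups the other arrays lay at the floor of 4.0. *Magea4* was flagged in injection clone 1 (4.50), with the other 3 injection clones at the floor.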

How the results depend on the processing

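The cluster probes kept their direction and lay below the female embryos under every scaling, floor and left-out array tried. The following means describe members chosen by these values and are no support for the difference. Over the 7 *Magea* probes detected in all IVF-derived embryos, a filter that removes *Magea4*, the mean differed from female embryos by -5.38 in fusion clones, and by -3.91 with normexp, -6.35 with a floor of 1, -4.65 over all 8 probes and -7.22 over the cluster probes only (the last chosen after seeing the data). In injection clones it was -4.74, and -6.35 over the cluster probes only. The difference of *Magea4* exceeded the median difference of the cluster probes by 8.06 in fusion clones (6.01 with normexp, 12.07 with the deposited values, 12.02 with a floor of 1) and by 6.83 in injection clones (10 and 9.59 with the last 2). The floor sets these sizes, since *Magea4* was not detected in female embryos and many clone values were at the floor, so that nothing is read from them. Between the sexes, 1 *Magea* probe, *Magea4*, was called with the deposited values and 1 with a floor of 1. Its difference was 0.00 with a floor of 32. *Magea7*, with a difference near 0 between the sexes, turned to 0.20 with 75th percentile scaling, 0.00 with normexp, 0.20 with the deposited values and, over left-out arrays, -0.25 to 0.34 (0.34 without male embryo 3, 0.14 without female embryo 1). *Magea9* turned to 0.29, 0.01 and 0.29 with the same settings and ranged from -0.20 to 0.09 over left-out arrays (0.09 without male embryo 2), and *Magea5* ranged from -0.86 to 0.17 (0.17 without male embryo 3). *Magea9* in fusion clones relative to female embryos was 0.00 with 75th percentile scaling and 0.04 with the deposited values. The median over all probes moved from -0.12 to 0.05 with the latter. *Magea6* between the clone groups was 0.20 without both arrays numbered 3, a setting added after seeing the data, and over left-out arrays *Magea1* ranged from -1.37 to 0.28, *Magea6* from -0.94 to 0.45 and *Magea8* from -1.57 to 0.33, each highest without injection clone 3. Of the other MAGE genes, 3 were called lower in fusion clones, and 4 with the filter on every array. The count was 1 with 75th percentile scaling, the deposited values or a floor of 32. It was 0 with the replicate block, 0 without both arrays numbered 3, and 0 to 2 over left-out arrays. In injection clones 3 were called, and 1 with the deposited values, a floor of 1 or without both arrays numbered 3, 0 with the replicate block, and 1 to 2 over left-out arrays. Of the partners, 2 probes were called lower in fusion clones, and 3 with 75th percentile scaling. The count was 1 with floors of 1 or 32, no filter, all 4 groups in one fit or without both arrays numbered 3. It was 0 with the replicate block, and 0 to 2 over left-out arrays. In injection clones 0 were called, and 2 with normexp or all 4 groups in one fit and 1 with the filter on every array or a variance trend. In all of these the cause was not tested. The replicate block changed no call of a *Magea* probe, between the sexes (0 called with the block and 0 without) or between the clone groups. Averaging the probes of a gene was not run, because each *Magea* gene has 1 probe. The number of arrays limits the precision, and clone values at the floor give no order.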
